A study of Mus musculus with 4 samples.

Results

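Wnt2 Foxf1 cells, a candidate cardiopulmonary mesenchyme, were examined in the E9.5 and E10.5 libraries of a single-cell RNA sequencing study of the mouse Mesp1 lineage. Members were selected on measured values, as retained cells with 2 or more UMIs of Wnt2 and 1 or more of Foxf1, 0 UMIs of Cdh5 (endothelium) and of Upk3b (mesothelium), and fewer than 3 of the sarcomere genes Tnnt2, Myl4, Myl7, Actc1, Ttn and Myh6 at 2 or more UMIs. A UMI is a count of 1 captured molecule, and retained cells had at least 1000 detected genes and at most 10% mitochondrial UMIs. The selection held 735 of 12094 retained cells of the late libraries, 413 from E9.5 and 322 from E10.5, and the whole series held 22625 retained cells. The levels of the selection genes are therefore a description and were not tested.

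All embryos were Swiss Webster mice carrying Mesp1Cre and the Rosa26-GFPflox/+ reporter, so that GFP marks descendants of cells that once expressed Mesp1, a gene of the earliest cardiac and head mesoderm. Living GFP+ cells were sorted from pooled embryos, and endoderm and neural crest should therefore be largely absent. The late libraries came from the pharyngeal apparatus with the heart, while E8.0 and E8.25 came from the upper body, and the labels give no other allele and no treatment. There was 1 library per stage, so stages were not tested, and each interval beside a stage value covers counting error only. What was dissected and how the embryo changed cannot be told apart.

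Cardiopulmonary mesenchyme lies between the inflow pole of the heart and the foregut, and gives rise to cells of both heart and lung. Wnt2, a secreted ligand of the Wnt/beta-catenin pathway, is expressed there and, together with Wnt2b, is needed for the lung to be specified in the neighbouring endoderm. Foxf1, a forkhead factor, is a classic target of hedgehog signals from that endoderm, and Tbx5, a T-box factor, acts in the inflow heart and upstream of Wnt2 in lung formation.

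The Wnt2 gene lies on chromosome 6 of the mouse GRCm38.p6 assembly, at chr6:17985474-18032772 on the minus strand. The 250 bases before the start used by RefSeq's promoter table (chr6:18030446-18030695, inside the outer limits of the gene) are shown because GATA factors were among the genes that went with Wnt2 in these cells, and those before the start of Asz1 (chr6:18109062-18109311), the next gene on the same strand, because Asz1 RNA also went with Wnt2. Capitals mark GATAA, the core that GATA factors recognise, searched on both strands and shown here as its reverse complement.
Wnt2: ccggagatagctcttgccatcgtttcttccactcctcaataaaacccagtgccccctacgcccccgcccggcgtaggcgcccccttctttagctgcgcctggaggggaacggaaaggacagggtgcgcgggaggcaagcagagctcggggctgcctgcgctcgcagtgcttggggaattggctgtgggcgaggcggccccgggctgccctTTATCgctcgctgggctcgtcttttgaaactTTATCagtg
Asz1: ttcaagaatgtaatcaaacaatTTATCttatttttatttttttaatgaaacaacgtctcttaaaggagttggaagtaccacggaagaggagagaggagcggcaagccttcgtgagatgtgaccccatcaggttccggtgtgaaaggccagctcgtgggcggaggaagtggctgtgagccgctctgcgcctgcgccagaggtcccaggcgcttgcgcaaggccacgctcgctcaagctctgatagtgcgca
The Wnt2 window held 2 matches, whose first bases lay 40 and 9 bases before the start, and the Asz1 window held 1. Of 32817 such windows of the assembly, 22.6% held at least 1 match and 4.28% held 2 or more. The T-box letters GGTGTGA were found in 3.33% of windows, 0 times before Wnt2 and once before Asz1, and the forkhead letters TGTTTAC in 3.16%, and before neither gene. A match describes the letters only, and no binding was measured.

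The selection took 10.2% of retained cells at E9.5 (413 of 4052, exact Clopper-Pearson 95% interval 9.28 to 11.2%) and 4.0% at E10.5 (322 of 8042, 3.59 to 4.46%). Wnt2 was not limited to these cells. At 2 or more UMIs it was found in 1268 cells at E9.5, of which 720 had no Foxf1 UMI and 389 had 3 or more sarcomere genes. At E10.5, 800 cells held it, of which 405 lacked Foxf1 and 127 had the sarcomere genes. Members thus made up 32.6% and 40.2% of the Wnt2 cells.

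Members held a median of 5 (E9.5) and 4 (E10.5) Wnt2 UMIs and at most 19 and 21. The median of Foxf1 was 6 and 3 UMIs. Just outside the Wnt2 threshold lay 166 (E9.5) and 180 (E10.5) cells with 1 UMI, and just inside it cells with 2, which made up 25.4% and 26.1% of the members. Free or misassigned RNA can give single UMIs. Between both late libraries 41 barcodes were shared, of which 1 was a member in both. How many would be shared by chance was not worked out.

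The comparison cells passed the same selection except that Wnt2 was at 0 UMIs, which gave 525 and 1352 cells for the 2 stages (Foxf1 cells without Wnt2). Members were somewhat deeper, with medians of 18463 and 16611.5 UMIs per cell at E9.5 and E10.5 against 16480 and 14743.5. Counts were summed per library and class, and levels are given as CPM, UMIs of a gene per 1000000 UMIs of each sum. The test was edgeR's quasi-likelihood test with the library as a block, over 2 pairs of sums, with Benjamini-Hochberg adjustment over all genes. With 1 residual degree of freedom per gene, the spread behind each standard error (SE) was largely pooled over genes (prior degrees of freedom 7.88), and a gene could be called although the 2 libraries, which are also 2 stages, differed in its direction. Sums of 1 library come from 1 pool of embryos.

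Markers were checked before the results. Osr1, a zinc finger gene of the posterior second heart field and foregut mesoderm, was detected in 58.0% of members at E9.5 (95% interval 53.0 to 62.8%) and in 80.6% at E10.5 (75.8 to 84.8%) after every cell was thinned to 8000 UMIs. Tbx5 was detected in 45.0% (40.1 to 50.03%) and 53.2% (47.5 to 58.8%). In Cdh5 cells, used as a rough background, the shares were 3.35% and 12.0% for Osr1 and 4.78% and 10.0% for Tbx5. Whether these reflect free RNA, doublets or expression in some Cdh5 cells was not tested. The median depth of Cdh5 cells before thinning was 17741 and 18496.5 UMIs, and without thinning Osr1 was found in 72.4% and 91.3% of members.

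Isl1, a LIM homeodomain factor of second heart field progenitors, was detected in 39.3% and 36.3% of members, and Gli1, a hedgehog response gene, in 10.7% and 15.0%, against 6.22% and 12.0% (Isl1) and 0% and 1.81% (Gli1) of Cdh5 cells. With 0 of 209 Cdh5 cells at E9.5, the exact 95% upper limit for Gli1 there was 1.75%. Isl1 and Gli1 together, which with Wnt2 are the usual marks of cardiopulmonary progenitors, were found in 27 of 402 thinned members at E9.5 (6.72%) and 25 of 314 at E10.5 (7.96%). Tbx4, a T-box gene of lung mesenchyme, was close to 0 at E9.5 (0.498%) and present in 13.1% at E10.5. Osr1, Tbx5, Isl1 and Gli1 thus stood above the level in Cdh5 cells in both libraries. Tbx4 was nearly absent from the E9.5 members. In Foxf1 cells without Wnt2, Isl1 was found in 37.1% and 31.0% and Gli1 in 10.2% and 15.0%, close to the members. Osr1 (48.0% and 52.9%) and Tbx5 (18.0% and 25.6%) were found in fewer of these cells than of the members. The pair of Isl1 and Gli1 was not counted in them. Gata4 was found in 33.3% and 21.7% of members and in as many Cdh5 cells (32.1% and 24.1%), which also include endocardium.

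**Figure D1:**
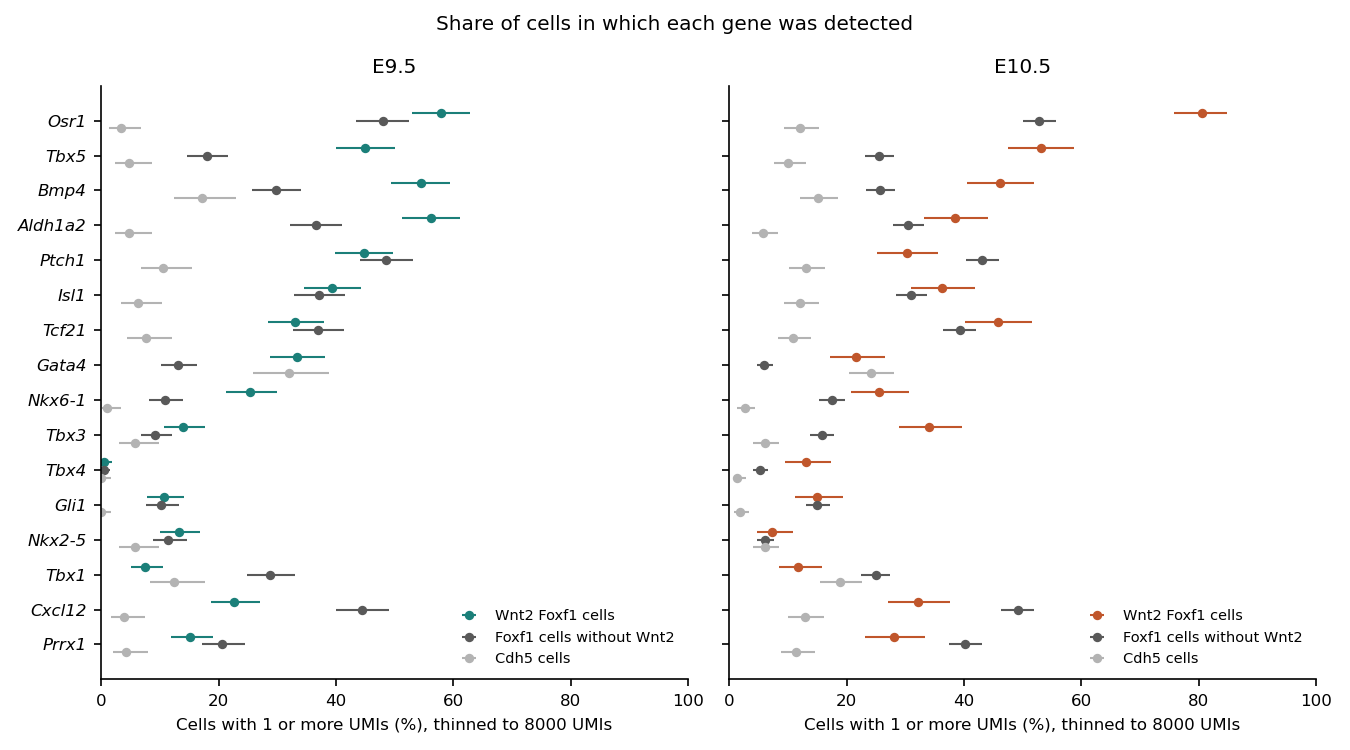
Share of cells with 1 or more UMIs of each gene (x axis, percent of cells thinned to 8000 UMIs) in Wnt2 Foxf1 cells, Foxf1 cells without Wnt2 and Cdh5 cells at E9.5 (left) and E10.5 (right). Bars are exact 95% intervals; Tbx5 was found in 45.0% and 53.2% of Wnt2 Foxf1 cells and in 18.0% and 25.6% of Foxf1 cells without Wnt2.

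Markers of other cell types ranged from absent to as high as in the rest of the late libraries. The lung endoderm gene Nkx2-1 had 0 UMIs in members of both libraries, the summed level of 14 endoderm and epithelial genes was 5.11 and 8.82 CPM in the E9.5 and E10.5 members, and the neural crest genes Sox10 and Foxd3 were at 0.166 CPM or less. The whole list of 10 neural crest and neural genes summed to 45.1 and 78.2 CPM in members, 50.6 and 88.0 in the comparison cells and 45.6 and 65.4 in all other retained cells, most of it from Ets1 and Tubb3, which other cells also express. Mesothelial and epicardial genes summed to 273 CPM in members at E9.5, above the comparison cells (165) and all other retained cells (237), and to 81.4 CPM at E10.5, against 52.8 and 147. Krt8 and Krt18 made up most of it, Msln and Muc16 had 0 UMIs in members of both libraries, and Wt1 was at 14.1 and 3.99 CPM. Cranial and limb mesenchyme genes summed to 409 and 404 CPM in members and to 523 and 406 in all other retained cells. The 15 cardiomyocyte genes that the selection did not use summed to 196 and 157 CPM in members, 158 and 79.9 in the comparison cells and 1720 and 490 in all other retained cells. Blood genes changed most between libraries, as 12 of them summed to 11.6 CPM in members at E9.5 and to 15532 CPM at E10.5, against 9.08 and 38021 CPM in the comparison cells.

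Of 11947 genes tested between members and Foxf1 cells without Wnt2, 257 were called at an adjusted p under 0.05 (edgeR), with 114 higher in members (0.954% of those tested) and 143 lower (1.2%). The direction was the same in both libraries for 244 of them, and 1213 genes had an unadjusted p under 0.05. DESeq2 called 90 genes, and with Foxf1 at 2 or more UMIs in both classes 201 of the 257 were called again. Without the library block no gene was called by edgeR, while 203 had an unadjusted p under 0.05.

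Genes of the posterior second heart field, whose cells are added to the inflow pole of the heart, were the list with the most genes higher in members. Of 20 listed genes, all tested, 9 were higher and 0 lower, with a median log2 fold change of 0.41 against -0.00 over all genes. Gata5, a GATA factor of cardiac progenitors, stood at 74.5 CPM at E9.5 and 60.8 at E10.5 in members and at 21.3 and 12.0 in the comparison cells, which gave a log2 fold change of 2.06 ± 0.126 (SE, edgeR adjusted p = 0.00012). It was thus higher in members in both libraries, which are 2 pairs of sums. Gata4 (log2 fold change 1.32 ± 0.146) and Gata6 (0.94 ± 0.0932), which share targets with Gata5, were also higher, and all 9 kept their direction in every alternative that gave a value.

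Tbx5, which the selection did not use, was at 90.4 and 112 CPM in members and at 33.0 and 52.3 CPM in the comparison cells (log2 fold change 1.24 ± 0.101, edgeR adjusted p = 0.000411). Osr1 was at 212 and 267 CPM against 141 and 163 (0.64 ± 0.0568, edgeR adjusted p = 0.00053). Nr2f2, a nuclear receptor of atrial identity, Aldh1a2, the enzyme that makes retinoic acid, and the T-box repressors Tbx2 and Tbx3 were the other genes called. Isl1 did not differ beyond its error, with 98.4 and 86.6 CPM against 105.2 and 82.8 (-0.03 ± 0.0711).

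**Figure D2:**
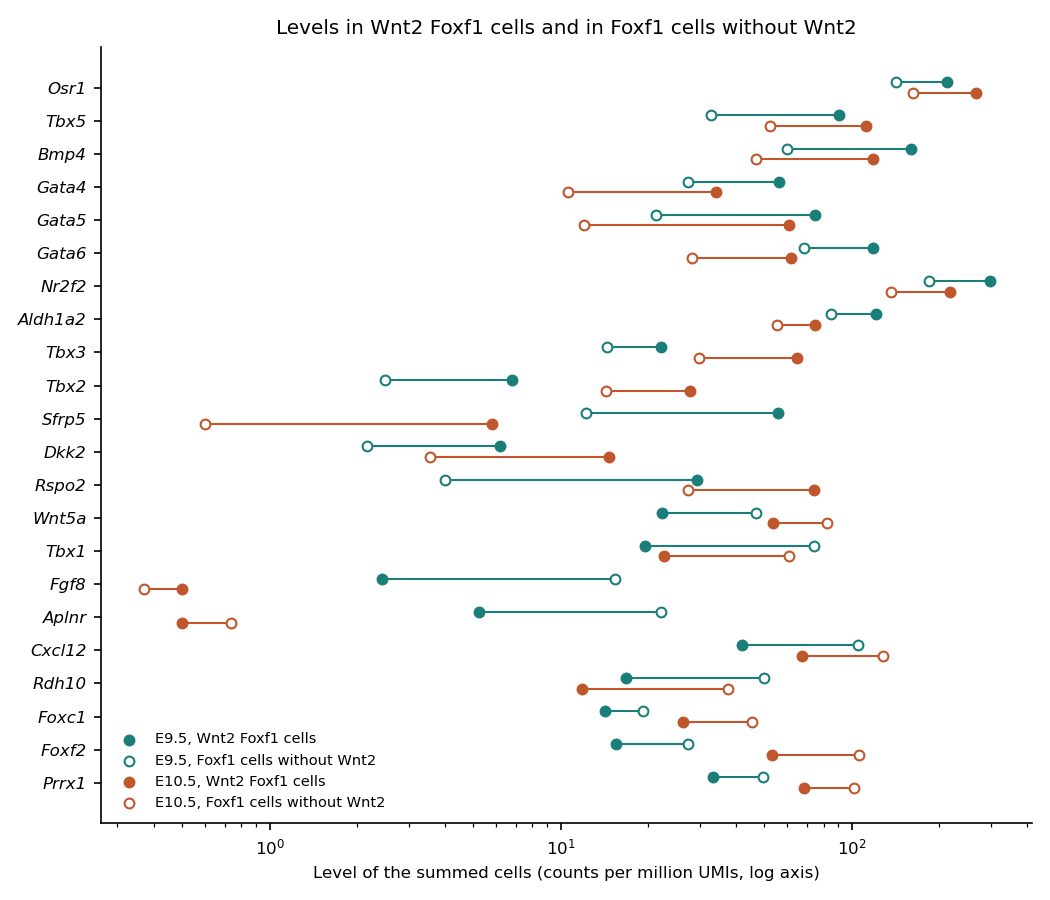
Levels of 22 genes (x axis, CPM of the summed cells, log axis) at E9.5 and E10.5, with filled points for Wnt2 Foxf1 cells and open points for Foxf1 cells without Wnt2; each point is 1 library and has no error bar. Filled points lie to the right for Osr1, Tbx5, Bmp4 and the Gata genes and to the left for Tbx1 and Cxcl12 in both libraries, while Fgf8 changes order between libraries.

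Genes of BMP signalling, in which secreted ligands act through Smad proteins on targets such as the Id and Msx genes, gave 7 of 24 tested genes higher and 0 lower (median 0.26). Bmp4, a ligand that the lung and inflow mesenchyme express, was at 160 CPM at E9.5 and 118 at E10.5 in members and at 60.0 and 46.9 in the comparison cells. Its log2 fold change was 1.36 ± 0.0718 (edgeR adjusted p = 6.73e-05), the smallest adjusted p among the genes higher in members. Bmp5, another ligand, showed 1.25 ± 0.144, and the response genes Msx2 1.62 ± 0.136, Msx1 1.05 ± 0.155 and Id3 0.36 ± 0.0456. Bambi, a decoy receptor, and Bmper, a secreted modulator, were higher too, at 0.95 ± 0.0701 and 1.60 ± 0.314. Ligands, modulators and targets were thus all represented among the genes called.

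Among 17 tested Wnt ligands, carriers and secreted modulators, 3 were higher and 1 lower. The secreted antagonists Sfrp5 and Dkk2 and the agonist Rspo2 were higher, and the non-canonical ligand Wnt5a was lower. Sfrp5 was at 56.0 CPM in members at E9.5 and 5.83 at E10.5, against 12.2 and 0.599 (log2 fold change 2.39 ± 0.204, edgeR adjusted p = 0.000492). Rspo2, which raises the amount of Wnt receptors, ran the other way with stage, from 29.4 to 74.1 CPM against 4.0 and 27.5 (1.80 ± 0.237). Both were higher in members at each stage. Wnt5a was at 22.3 and 53.8 CPM in members and 46.8 and 82.3 in the comparison cells (-0.82 ± 0.11). Wnt2b, a close relative of Wnt2 with an overlapping role in the lung, was at 1.10 and 0.999 CPM in members and was too low to be tested.

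Of 24 tested Wnt receptors and response genes only Nkd1, a feedback inhibitor, was called. It was higher in members, with 50.5 and 95.4 CPM against 32.2 and 38.7 (log2 fold change 1.00 ± 0.132, edgeR adjusted p = 0.00474). The feedback gene Axin2 was at 13.2 and 18.6 CPM against 9.19 and 11.4 and did not pass (0.61 ± 0.15, edgeR adjusted p = 0.0947). Lef1, the transcription factor that beta-catenin joins, was lower in members at E9.5 (log2 ratio -0.53) and higher at E10.5 (0.96), where ratios within 1 library have 1 UMI added to each class.

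Hedgehog components gave a mixed picture. Of 19 tested genes 2 were higher (Gas1 and Osr1) and 4 lower, all 4 of them forkhead genes, namely Foxf2, Foxc1, Foxc2 and Foxd1. Foxf2 was at 15.5 and 53.3 CPM in members and 27.5 and 106 in the comparison cells (log2 fold change -0.95 ± 0.0951, edgeR adjusted p = 0.00108). The direct response genes Gli1 (0.08 ± 0.127) and Ptch1 (-0.40 ± 0.126, edgeR adjusted p = 0.227) did not pass.

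In the list of lung and foregut mesenchyme genes, 8 of 28 tested were higher and 4 lower. Tbx2, Tbx3, Tbx4, Tbx5, Bmp4, Bmp5, Foxp1 and Hoxa4 were the higher ones, most of which also stand in the lists above. Tbx2, Tbx4, Foxp1 and Hoxa4 were called neither in thinned cells nor by DESeq2. In each of these alternatives 8 of the 12 genes called stayed called, and all 12 kept their direction. Tbx4 was at 0.731 CPM at E9.5 and 16 at E10.5 in members, against 0.216 and 6.13 (1.38 ± 0.253, edgeR adjusted p = 0.0262). The lower genes were Wnt5a, Foxf2, Meox1 and Barx1. Barx1, which marks stomach mesenchyme, was at 13.3 and 2.0 CPM against 52.5 and 6.13 (-1.92 ± 0.158), and thinned shares of cells ran the same way at E9.5, with 5.97% of members and 14.7% of the comparison cells.

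Anterior second heart field and pharyngeal genes were, blood genes aside, the list with the largest share lower in members, with 8 of 13 tested genes lower and 0 higher (median -0.86). Tbx1, the T-box gene of the pharyngeal mesoderm, was at 19.5 and 22.6 CPM in members and at 74.2 and 60.6 in the comparison cells (log2 fold change -1.69 ± 0.122, edgeR adjusted p = 0.000214). Eya1, a transcriptional coactivator of pharyngeal development, was also lower in both libraries (-1.26 ± 0.165). Fgf8, a growth factor of the anterior field, and Aplnr, the apelin receptor, were called largely on E9.5. Fgf8 was at 2.44 CPM in members and 15.4 in the comparison cells at E9.5 but near 0 in both at E10.5 (0.499 and 0.369), so the E10.5 library says little about it. With DESeq2, 1 of the 8 stayed below an adjusted p of 0.05 and all 8 kept their direction, while Lhx2 turned positive (0.19) when Foxf1 had to be at 2 or more UMIs.

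Chemokine and guidance genes went both ways, with 3 of 22 tested genes higher (Kitl, Vegfc and Slit3) and 3 lower (Cxcl12, Sema3c and Pdgfa). Cxcl12, a chemokine of mesenchyme that attracts Cxcr4 cells, was at 42.1 and 67.4 CPM in members against 105.2 and 128 (-1.12 ± 0.0931, edgeR adjusted p = 0.000411). Kitl, the ligand of Kit, was at 56.1 and 23.1 CPM against 26.5 and 6.77 (1.36 ± 0.155). Among retinoic acid genes Aldh1a2 was higher, whereas Rdh10 (-1.62 ± 0.113) and Dhrs3, which make and reduce retinal upstream of it, were lower, out of 16 tested. Of 14 tested FGF genes Fgf8 alone was called, of 14 Hox genes Hoxa4 alone, and of 30 extracellular matrix genes 4 were lower, the collagens Col26a1, Col13a1 and Col23a1 and the fibrillin Fbn2. Smooth muscle genes gave 1 higher (Rgs5) and 1 lower (Tagln, -1.14 ± 0.11) of 10. Several of these calls were fragile. Sema3c, Pdgfa, Aldh1a2, Dhrs3, Hoxa4, Col13a1, Col23a1 and Fbn2 were called neither in thinned cells nor by DESeq2, but kept their direction in both. Vegfc, Fgf8 and Rgs5 were not called by DESeq2 either, and Fgf8 was too low to be tested in thinned cells.

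By size, the genes highest in members among those at 20 CPM or more in both libraries of the higher class were Atp1b1, Gata5, Mbnl3, Rspo2, Fam19a1, Msx2, Ifi204, Bmp4, Kitl and Ccdc141. Atp1b1, a subunit of the sodium pump, was at 21.6 and 34.5 CPM against 3.46 and 6.54 (log2 fold change 2.46 ± 0.154, edgeR adjusted p = 0.00013). The lowest were Tbx1, Ntng1, Rdh10, Ebf1, Cldn11, Tspan12, Col2a1, Tagln, Cxcl12 and Fam212a. Ebf1, a transcription factor of pharyngeal and cranial mesenchyme, was at 22.9 and 17.1 CPM against 62.0 and 51.5 (-1.51 ± 0.103). Log2 fold changes of the 10 higher genes ran from 1.33 to 2.46 and those of the lower from -0.99 to -1.69. The same sign in both libraries was a condition for being named here and is not a result.

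**Figure D3:**
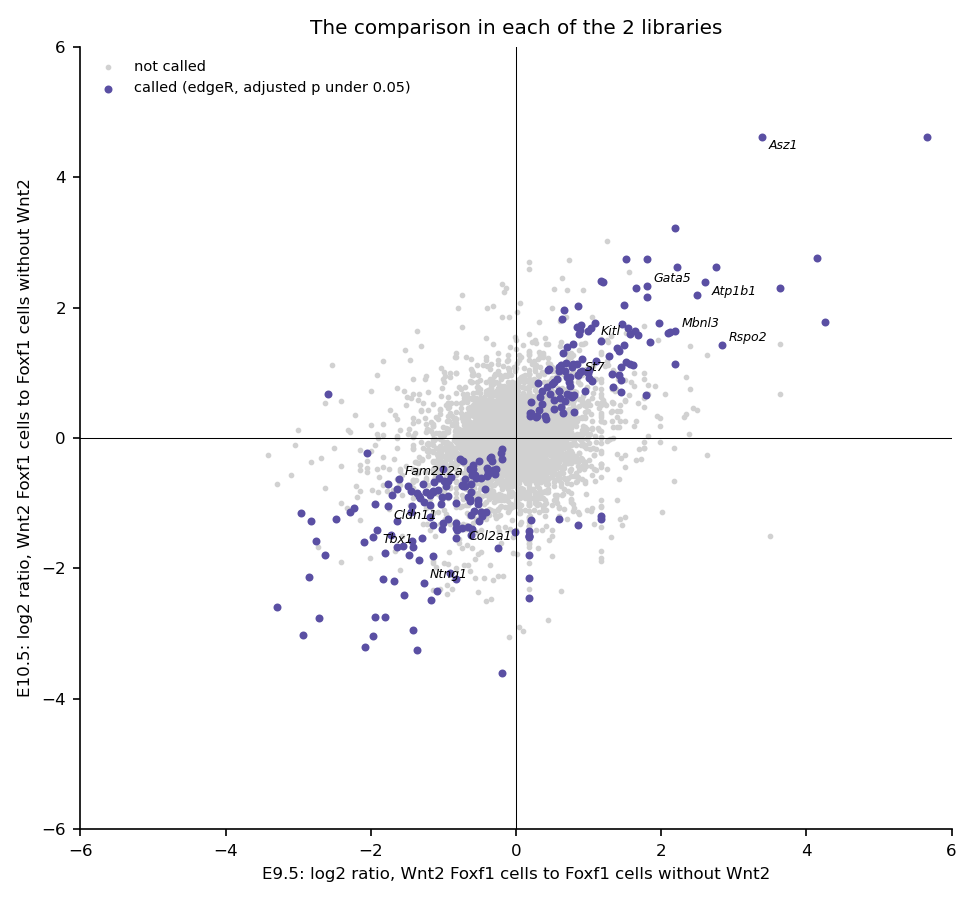
Log2 ratio (1 UMI added to each class) of each tested gene between Wnt2 Foxf1 cells and Foxf1 cells without Wnt2 at E9.5 (x axis) and at E10.5 (y axis), with the 257 genes called by edgeR in colour and 12 genes labelled. Of the called genes 244 have the same direction in both libraries; Asz1 lies farthest to the upper right of those labelled.

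Markers of other cells also differed. Of 10 tested blood genes 8 were lower in members, with log2 fold changes from -1.16 (Hba-a2) to -1.67 (Fcer1g), and this rested on E10.5, where the embryonic haemoglobin gene Hbb-y stood at 8142 CPM in members and 19443 in the comparison cells, against 4.51 and 3.89 CPM at E9.5. When Foxf1 had to be at 2 or more UMIs in both classes the direction turned, and Hbb-y was then higher in members (0.86, edgeR adjusted p = 3.75e-07). Pf4, a gene of macrophages and platelets chosen after its values were seen, was at 101 CPM in the comparison cells at E10.5 and 8.16 in members. The macrophage genes Ptprc and Csf1r were at 0 to 1.94 CPM in both classes. Of 8 tested endothelial genes Cldn5 and Fli1 were lower and Kdr, the VEGF receptor, higher, at 24.3 CPM in members at E10.5 against 6.87. Keratins Krt8 and Krt18 of the mesothelial list were higher (Krt8 1.16 ± 0.161), as were the cardiac genes Smpx and Ryr2. The part of such cells in the other differences was not tested.

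The largest log2 fold changes belonged to genes of low level, chosen here after their values were seen. Crhbp, which encodes a binding protein of the hormone CRH, had 44 (E9.5) and 74 (E10.5) UMIs in members and 0 and 10 in the comparison cells (edgeR adjusted p = 0.000529), and Asz1 followed.

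The neighbours of Wnt2 on chromosome 6 were read out after Asz1 had been seen among the genes called. Asz1, a gene known for its role in germ cells, had 27 (E9.5) and 40 (E10.5) UMIs in members, or 3.29 and 6.66 CPM, and 2 and 5 UMIs in the comparison cells, or 0.216 and 0.23 CPM. With 1 UMI added to each class, the log2 ratio was 3.39 at E9.5 (95% counting interval 1.93 to 7.04) and 4.63 at E10.5 (3.51 to 6.55), and edgeR gave 4.52 ± 0.461 (adjusted p = 0.00118). St7, which lies 42451 bases beyond the other end of Wnt2 on the opposite strand, was at 31.1 and 30.1 CPM against 17.1 and 15.4 (0.91 ± 0.115, edgeR adjusted p = 0.00404). The 3′ end of Asz1 lies 18192 bases from the outer limit of the Wnt2 gene on its 5′ side. The next genes outward that were expressed did not pass, namely Capza2 (0.20 ± 0.0518, edgeR adjusted p = 0.127), Cttnbp2 (-0.04 ± 0.305) and Lsm8 (0.06 ± 0.0508), and Met, Cftr and Cav1 were too low to be tested.

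Asz1 was also read across all retained cells, which include the members and so are not a separate set. Of the 58 (E9.5) and 60 (E10.5) Asz1 UMIs in cells with 2 or more Wnt2 UMIs, 27 and 40 were those of the members. In the E9.5 library it was detected in 0.129% of 2324 cells with 0 Wnt2 UMIs, 1.74% of 460 cells with 1 and 4.50% of 1268 cells with 2 or more. At E10.5 the shares were 0.197%, 2.36% and 7.0%. In the early libraries they were 0.0867%, 0.121% and 0.711% at E8.0 and 0.0896%, 0.344% and 1.86% at E8.25. These early shares rest on few cells with Asz1, namely 5, 1 and 7 at E8.0 and 2, 1 and 8 at E8.25. The share was highest in the cells with most Wnt2 in each of the 4 libraries, and cells with 2 or more Wnt2 UMIs were also deeper than those with 0, with median depths of 19223 against 16439.5 UMIs at E9.5 and 17010 against 15239 at E10.5. Asz1 was called in every alternative tried except the fit without the library block, while St7 was not called by DESeq2 (adjusted p = 0.0953). The RefSeq coordinates of both genes do not overlap those of Wnt2.

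Among members, several genes varied with the amount of Wnt2. Cells were grouped by their Wnt2 UMIs as 2, 3 to 4, 5 to 9, and 10 or more, the last with 66 (E9.5) and 26 (E10.5) cells. Bmp4 was at 74.8, 116, 179 and 287 CPM in these groups in the E9.5 library, and at 58.0, 115, 151 and 183 CPM in the E10.5 library. Gata4 went from 37.1 to 73.4 CPM and from 19.1 to 68.7 CPM between the lowest and the highest group, and Isl1 from 47.1 to 178 CPM and from 43.1 to 123 CPM. All 3 genes had their highest level in the cells with most Wnt2 in both libraries.

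Cxcl12 ran the other way, from 68.5 to 13.1 CPM at E9.5 and from 71.4 to 31.7 CPM at E10.5. Foxf1 showed no such order in either library, with 377, 311, 282 and 351 CPM at E9.5 and 178, 188, 182 and 176 CPM at E10.5. Tcf21, a basic helix-loop-helix factor of lung and epicardial mesenchyme, had none at E9.5, with 64.9, 59.7, 51.0 and 63.5 CPM, but went from 80.6 through 85.2 and 90.3 to 120 CPM at E10.5. The median depth was 17335 UMIs in the lowest group and 21371.5 in the highest at E9.5, and cells with 1 Wnt2 UMI, which were outside the selection, had 65.5 (E9.5) and 54.6 (E10.5) CPM of Bmp4, close to the members with 2. No test was made of this order, since Wnt2 chose the cells.

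**Figure D4:**
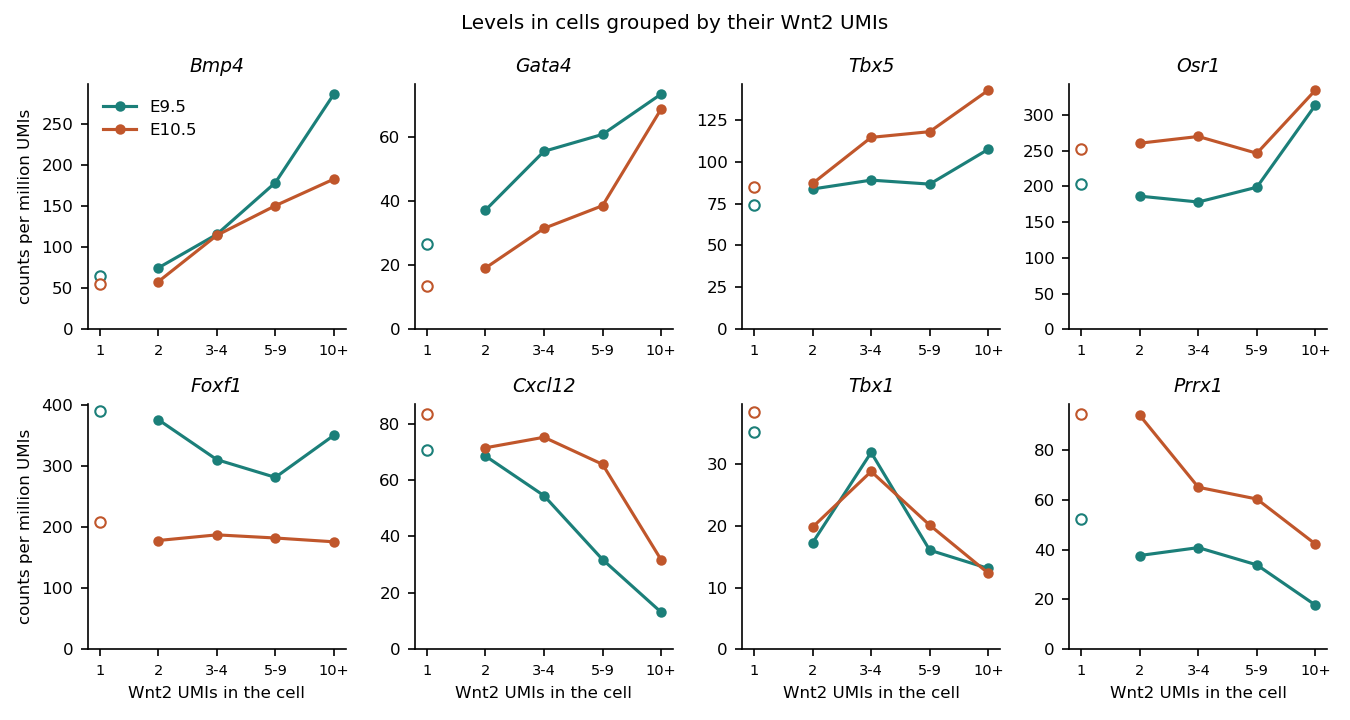
Levels of 8 genes (y axes, CPM of the summed cells) in cells grouped by their number of Wnt2 UMIs (x axis) at E9.5 and E10.5; filled points are members and open points cells with 1 Wnt2 UMI, outside the selection. Bmp4 and Gata4 are highest, and Cxcl12 and Prrx1 lowest, in the cells with 10 or more Wnt2 UMIs in both libraries.

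Pairs of regulators were counted in the thinned members. Tbx5 and Osr1 shared 116 of 402 cells at E9.5 (28.9%, 95% interval 24.5 to 33.6%) and 128 of 314 at E10.5 (40.8%, 35.3 to 46.4%), where the product of the single shares gives 26.1% and 42.9%. Tbx5 and Prrx1, a homeobox gene of limb and cranial mesenchyme, shared 2.99% at E9.5, where the product gives 6.83%. Prrx1 was found in 6.63% of the members with Tbx5 and in 22.2% of those without. Isl1 was found in 52.8% of Osr1 cells and 20.7% of the other members at E9.5, but in 35.2% and 41.0% at E10.5. Cells of 1 library are not replicates, and these shares carry no test.

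Members were then split by Tbx5, which was detected in 281 of 413 cells at E9.5 and 239 of 322 at E10.5. Of 10417 genes tested, 68 were higher (0.653%) and 69 lower (0.662%) in the cells with Tbx5 (edgeR), 124 of them with the same direction in both libraries. These calls were fragile. The spread was here pooled wholly over genes (infinite prior degrees of freedom), so that a gene's own disagreement between libraries did not enter its p. Alcam, chosen after its values were seen, was called (edgeR adjusted p = 9.27e-05) with log2 ratios of -0.92 (E9.5) and 1.27 (E10.5). With likely doublets removed 14 genes were called, with DESeq2 4, in cells thinned to 8000 UMIs 18, and without the library block 0, where 102 genes had an unadjusted p under 0.05. Cells with Tbx5 were also deeper, with medians of 19319 and 17249 UMIs against 16519.5 and 15504.

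Of the 14 genes still called with doublets removed, 8 were lower and 6 higher in the cells with Tbx5. Prrx1 was at 21.6 CPM at E9.5 and 52.3 at E10.5 in cells with Tbx5 and at 62.9 and 121 in those without (log2 fold change -1.37 ± 0.131, edgeR adjusted p = 4.36e-22). Col1a1, a fibrillar collagen, was at 22.5 and 32.9 CPM against 64.2 and 84.8 (-1.45 ± 0.144, edgeR adjusted p = 9.33e-21). Both were also called with doublets removed, at adjusted p = 0.000937 each (edgeR). Dlk1, an imprinted inhibitor of Notch signalling (-1.15 ± 0.075), and Lbh (-1.27 ± 0.164) kept their calls there too. Of 28 tested matrix genes 7 were lower and 0 higher, of which 1 was called with doublets removed and all 7 had the same direction. The mesothelial genes Wt1 and Krt19 were lower as well (Wt1 -1.19 ± 0.298), and 0 of the 2 was called with doublets removed.

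By size, the 10 highest genes of this split were Sapcd2, Kpna2, Tspan7, Palm, Mbnl3, Tnfrsf19, Tbx3, Vsnl1, Ccnf and Hoxa5, from 0.73 to 0.89 on the log2 scale, and the 10 lowest Col1a1, Prrx1, Tagln, Lbh, Dlk1, Flrt2, Anxa2, Tgfbi, Rspo3 and Tubb2a, from -0.90 to -1.45. Sapcd2 and Ccnf turned negative in thinned cells.

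Higher in the cells with Tbx5 were Tbx3, Hoxa5 and Bmp4 among 27 tested lung and foregut genes, with 0 lower. DESeq2 called 0 of these 3, and 1, Hoxa5, was called in thinned cells and with doublets removed. All 3 kept their direction in each. Hoxa5, a Hox gene of lung mesenchyme, was at 67.2 and 92.1 CPM against 39.4 and 55.9 (0.73 ± 0.133, edgeR adjusted p = 1.03e-05) and was called again with doublets removed (adjusted p = 0.0347, edgeR). In the posterior second heart field list 4 of 19 genes were higher (Gata5, Tbx3, Nr2f2 and Isl1) and 3 lower (Meis2, Hand1 and Nr2f1), of which 0 were called with doublets removed. Smpx, a small muscle protein gene, was at 15.1 and 62.7 CPM against 8.13 and 18.4 (1.42 ± 0.225). It was not called with doublets removed, in thinned cells or by DESeq2. The Wnt response genes Sp5 (2.69 ± 0.696) and Lef1 (0.72 ± 0.203) were higher, while the Wnt modulators Sfrp1, Sfrp2 and Rspo3 were lower. DESeq2 called 0 of these 5 genes, and 0 were called with doublets removed or in thinned cells, where Sp5 was too low to be tested. Sp5 had 2 and 1 UMIs in the cells without Tbx5, and Sfrp2 was lower only at E10.5, with 37.8 against 35.5 CPM at E9.5.

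Cell cycle and blood genes moved with the same split. Of 20 G2/M genes 10 were higher in cells with Tbx5, and their summed level was 5753 and 5524 CPM against 4700 and 4677. None of the 10 was called in thinned cells, in which 9 kept their direction, and 2 were called with doublets removed. Summed blood genes were at 17122 CPM in E10.5 cells with Tbx5 and 10366 in those without, and at 11.7 and 11.1 CPM at E9.5. Of the 5 blood genes called, 0 were called with doublets removed. There the log2 fold change of Hbb-y went from 0.69 to 0.041 (adjusted p = 0.968, edgeR). The part of depth, cell cycle and blood RNA in the Tbx5 split was not tested.

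Between stages, the members of E10.5 were set against those of E9.5. A gene was counted when the whole 95% counting interval of its ratio lay past 2-fold. Of 11365 genes with at least 20 UMIs, 240 were higher at E10.5 (2.11%) and 110 lower (0.968%). Most of this was not particular to the members. With the selection genes left in, 240 genes were higher and 112 lower. Of these, 231 were counted in the same direction in the Foxf1 cells without Wnt2 and 345 had the same sign there. In the other retained cells 210 were counted in the same direction. The values describe 2 libraries.

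The T-box genes of the lung field rose with stage. Tbx4 went from 0.731 to 16 CPM (log2 ratio 4.24, 95% interval 3.28 to 5.93), Tbx2 from 6.82 to 27.8 (2.01, 1.58 to 2.49) and Tbx3 from 22.2 to 65.1 (1.55, 1.30 to 1.82). Tbx5 changed little, from 90.4 to 112 CPM (0.31, 0.15 to 0.46). In the lung and foregut list 6 of 28 genes were higher, with Foxf2, Wnt5a and Meox2 as the others, and 2 lower. The lower genes were Hlx and Barx1, which went from 13.3 to 2.0 CPM (-2.63, -3.73 to -1.87).

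Rspo2, Sfrp2 and Wnt5a were more than 2-fold higher at E10.5 and Sfrp5 more than 2-fold lower, among 17 Wnt modulators and ligands. Hand1, a basic helix-loop-helix factor of lateral mesoderm, fell from 40.8 to 9.15 CPM (log2 ratio -2.13, 95% interval -2.59 to -1.74) and Hoxb1, a Hox gene of posterior second heart field progenitors, from 49.4 to 16.6 (-1.56, -1.90 to -1.25). Of 8 mesothelial genes 4 were lower (Wt1, Krt19, Krt8 and Krt18). Anterior second heart field genes gave 3 lower of 13, namely Lhx2, Aplnr and Irx3. The fibrillar collagens Col1a2 and Col3a1 were higher, at 92.7 and 200 CPM against 33.9 and 90.4, while the matricellular gene Postn went from 14.2 to 1.5 CPM.

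The largest ratios included blood genes. Alas2, an enzyme of haem synthesis in red cells, and Cited4 had 0 UMIs in members at E9.5 and 143 and 123 at E10.5, which bounds the ratio from below at a log2 of 5.71 and 5.49 by its counting interval. The metallothioneins Mt2 (0.365 to 62.4 CPM) and Mt1 (11.0 to 134) and the carbonic anhydrase Car2 followed, and 9 of 9 tested blood genes were higher. Alas2, Cited4, Mt2, Mt1 and Car2 were all higher still in the comparison cells of E10.5, with Alas2 at 67.7 CPM and Mt2 at 143, and blood RNA is high throughout the E10.5 library. The part of that RNA in these ratios was not tested. Mgp, a matrix protein gene that inhibits calcification, rose from 0.974 to 50.1 CPM (log2 ratio 5.52, with 1 UMI added to each library, as for all stage ratios here), and to 47.0 CPM in the comparison cells and 16.1 in all other retained cells. Nme2, Eid2, Cep170b and Cacna1a completed the 10 higher genes.

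The genes lowest at E10.5 were Adm, Tpm3-rs7, Itm2a, Shisa3, Lhx2, Sfrp5, Alcam, Dsp, Acta2 and Dlk1. Adm, the peptide hormone adrenomedullin, went from 22.7 to 0.499 CPM, and Itm2a from 143 to 6.66. Alcam, an adhesion molecule of early cardiac cells, fell from 119 to 15.8 CPM and in the comparison cells from 63.1 to 7.79. Acta2, smooth muscle actin, was unlike the others in the comparison cells. It fell from 73.3 to 13.3 CPM in members (log2 ratio -2.45) but only from 42.3 to 28.3 in the comparison cells (-0.58). In all other retained cells the log2 ratio of Acta2 was -1.74. Those cells are a mix, in which the 15 cardiomyocyte genes went from 1720 to 490 CPM. The part of a changed mix in that ratio was not tested. Tpm3-rs7 resembles Tpm3 closely enough that reads may be split between them, and its value is uncertain.

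**Figure D5:**
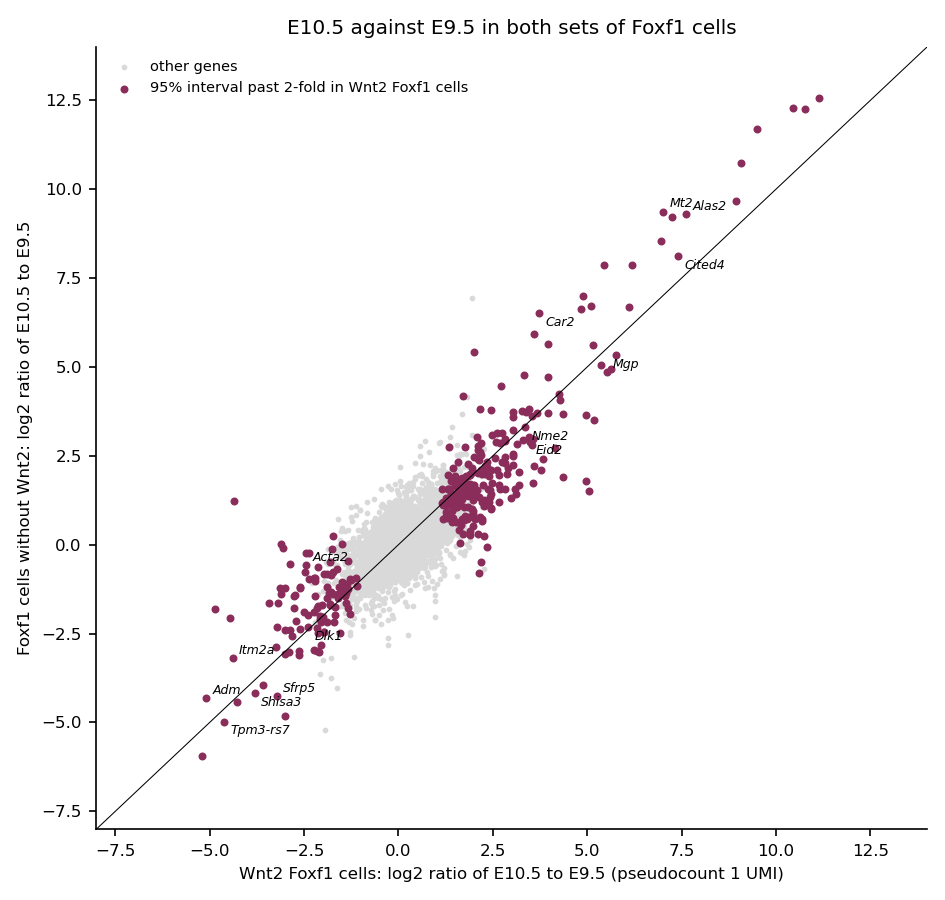
Log2 ratio of E10.5 to E9.5 (pseudocount 1 UMI) in Wnt2 Foxf1 cells (x axis) and in Foxf1 cells without Wnt2 (y axis) for each gene with 20 or more UMIs in members, with the 350 genes counted as more than 2-fold different in colour and the line of equal ratios. With the selection genes, which are not drawn, left in (240 higher and 112 lower), 345 genes have the same sign in both sets of cells. Mt2, Alas2 and Car2 lie above the line and Acta2 lies nearer to 0 in the comparison cells.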

How the data were processed

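The authors sorted GFP+ cells, prepared 10x Genomics 3′ (version 2) libraries and, per the labels, processed them with Cell Ranger 3.1.0 on mm10. The deposited values are raw UMI counts per gene (27998 genes) and called cell, with no normalization. The annotation release was not given in the sources used here. The late libraries held 74920880 UMIs in 4055 cells (E9.5) and 142850521 UMIs in 8070 cells (E10.5).

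From these counts, cells were filtered and selected in Python 3.11.15 (scanpy 1.11.5, scipy 1.17.1), and counts were summed per library and class. Sums were tested with edgeR 4.0.16 (TMM, filterByExpr, glmQLFit and glmQLFTest, library as a block, 1 residual degree of freedom) in R 4.3.3, with the Benjamini-Hochberg method at 0.05. Selection genes, and Tbx5 in the split by Tbx5, were left out of the counts. Labels give 1 library per stage, and p-values rest on these 2 libraries and on a spread that edgeR pooled over genes, largely for the comparison with Foxf1 cells without Wnt2 and wholly for the split by Tbx5. The code was tested on simulated data before use. DESeq2 1.42.0 served as an alternative. Doublets were kept, and removal at 0.8% per 1000 cells by Scrublet score was an alternative, since Scrublet's own threshold marked only 0.0247% and 0.0372% of cells. Intervals are exact (binomial or conditional binomial, 95%) and cover counting error only. A gene pair was read from cells thinned to 8000 UMIs, which left out 11 and 8 members. Genes named by size are the 10 highest and 10 lowest called with 1 sign in both libraries and 20 CPM or more in the higher class, without selection, mitochondrial, ribosomal protein, haemoglobin and Gm or Rik genes, and for stages the 10 largest and smallest ratios at 20 CPM or more. The members, the 23 gene lists (412 genes) and the tests were chosen with earlier results of these data known. Some genes are not reported here and stand in no list. Of 464 gene symbols looked up in RefSeq (GRCm38.p6), 462 matched, and promoter windows are from the same source.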

Additional observations from a re-analysis of the deposited data

Results flagged for a closer look

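For 15 genes of the lists the log2 ratio of members to Foxf1 cells without Wnt2 (1 UMI added to each class) lay beyond counting error in opposite directions in the 2 libraries, and the difference between libraries (E9.5 minus E10.5) was not tested over replicates. It was negative, with the gene lower in members at E9.5 and higher at E10.5, for Dkk1 (-2.10), Dusp6 (-2.02), Lef1 (-1.49), Hoxb1 (-0.94), Tcf21 (-0.62) and Hoxb2 (-0.51). It was positive for Postn (3.14), Acta2 (1.86), Hand1 (1.52), Tbx18 (1.37), Col1a1 (1.25), Nkx2-5 (0.80), Col1a2 (0.71), Col3a1 (0.41) and Crabp2 (0.40). Postn had log2 ratios of 2.01 (E9.5) and -1.13 (E10.5), and Lef1 of -0.53 and 0.96. None of these genes was called in the comparison.

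In the early libraries, which no comparison used, the same thresholds were passed by 5.85% of retained cells at E8.0 (443 cells) and 4.20% at E8.25 (124 cells). Their genes differed from those of the late members. Hand1 stood at 319 CPM and 191 CPM there, against 40.8 and 9.15 in the late members, and Tbx5 at 18.2 and 19.8 CPM. Tbx4, at 52.7 CPM, and Pitx1, at 128 CPM, were present at E8.0, while Tbx4 had 0 UMIs at E8.25. Nkx6-1 was at 0.848 and 0.594 CPM.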

How the results depend on the processing

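With 1 library per stage and 2 pairs of sums, the tests had 1 residual degree of freedom and pooled the spread over genes, and 244 of the 257 and 124 of the 137 genes called had the same direction at both stages. The selection took 14.3% and 6.24% of cells (E9.5, E10.5) with Wnt2 at 1 or more UMIs, 7.60% and 2.96% with 3 or more, and 6.13% and 2.27% in cells thinned to 8000 UMIs. Against Foxf1 cells without Wnt2, DESeq2 called 90 genes, all of them among the 257, no filter on low counts gave 658, and no library block gave 0. In the split by Tbx5 the 137 calls fell to 79 with Wnt2 at 1 or more UMIs, 67 with 3 or more, 18 in thinned cells, 14 with doublets removed, 4 with DESeq2 and 0 without the block. Between stages thinned cells gave 80 genes higher and 44 lower. Causes were not tested. No paired analysis by replicate number was possible because each stage has 1 library, and the library block pairs the classes.

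Of 1732 values under alternatives, 1183 kept direction and call, 456 lost a call, 66 moved and 27 changed sign. With Foxf1 at 2 or more UMIs, log2 fold changes turned positive for Lhx2 (0.19), Hbb-y (0.86), Hbb-bh1 (1.00), Hba-x (1.01), Hba-a1 (0.80), Hba-a2 (0.47), Alas2 (0.44), Klf1 (0.91) and Fcer1g (1.00). Single libraries gave Fgf8 -2.60 to 0.68, Hbb-y -1.26 to 0.21, Hbb-bh1 -1.33 to 0.86, Hba-x -1.24 to 0.59, and, where E9.5 held 0 UMIs in both classes, Alas2 -1.498 to 0.17. In the split by Tbx5 they gave Sfrp2 -0.71 to 0.078, Hand1 -1.03 to 0.060, Hoxb6 -0.19 to 2.50, Postn -1.40 to 1.62, Hba-a1 -2.92 to 0.73 and Hba-a2 -2.33 to 0.64. There, thinned cells turned Sapcd2 (-0.19), Ccnf (-0.42), Ccnb1 (-0.0058), Nr2f1 (0.053) and Col1a2 (0.54), and DESeq2 turned Postn (0.82) and Hba-a1 (-1.11).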
